A study of Mus musculus with 4 samples.

Results

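Parenchymal microglia, the resident macrophages of the brain tissue, were taken from single-nucleus RNA sequencing of the mouse cerebral cortex, and 1890 of the 35694 nuclei in the 4 libraries were members. A nucleus was a member when its raw UMIs (unique molecular identifiers, counts of captured RNA molecules) of Inpp5d, Runx1, Csf1r, Cx3cr1, Siglech and Tgfbr1 added up to at least 4 and to at least 30 per 10000 UMIs of that nucleus. It also had to hold no UMI of Mrc1 or F13a1 (border-associated macrophages), Slc17a7 (excitatory neurons), Gad1 or Gad2 (inhibitory neurons) or Mog (oligodendrocytes). These measured values chose the members, so the levels of these 12 genes are a description and not a finding. The control group was 2 adult CrT+/y males and the CrT-KO group was 2 CrT-/y males, each animal giving 1 library from its right cortex. All were adult and untreated, on a C57Bl/6J background. The paper drew both genotypes from shared litters, using several litters per experiment. CrT is the creatine transporter, encoded by the X-linked gene Slc6a8, and CrT-KO animals lack several of its exons in every cell of the body, so no result here can be assigned to the loss of the gene in microglia themselves. With 2 animals per genotype, p-values rest on the spread between these 4 libraries only. For single genes the edgeR test estimates that spread partly from the other genes tested.

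Microglia derive from yolk sac progenitors and depend on signalling through the CSF1 receptor. The transcription factor PU.1 directs their genes together with RUNX1 and IRF8, and TGF-beta from the surrounding tissue maintains the homeostatic state. They survey the tissue with motile processes, sense purine nucleotides through P2RY12, clear debris through lysosomes and tag material for removal with complement C1q. Creatine buffers cellular energy as phosphocreatine, and the transporter carries it into cells.

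The members held from 397 to 509 nuclei per library, namely 397 and 509 in the control libraries and 481 and 503 in the CrT-KO libraries. Median UMIs per microglial nucleus were 981 and 1033 in the control libraries and 1046 and 893 in the CrT-KO libraries, so the groups overlapped (mean 1007 ± 36.8 against 969.5 ± 108, SD, n = 2 each, difference -37.5, two-sided exact permutation p = 1, where 0.333 is the smallest p that 6 assignments of the libraries allow). The microglial sums were 400652, 547443, 518618 and 468398 UMIs in control 1, control 2, CrT-KO 1 and CrT-KO 2, out of 51507483 to 65240843 UMIs of all nuclei per library. At the edge of the rule, 69 members had a sum of exactly 4 and 32 nuclei that met every other part of it had a sum of 3. A further 8 members lay between 30 and 35 per 10000 UMIs and 8 nuclei between 25 and 30 lay outside. Nuclei that met the microglial sums but were left out for Mrc1 or F13a1 alone numbered 73, those left out for a neuronal gene 147 and those left out for Mog 44. No barcode of a member was shared between libraries, against 12 to 19 shared barcodes per pair of libraries over all nuclei.

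The label fitted the genes that the rule did not use. Homeostatic microglial genes outside the rule were present in every library, with Mertk, an engulfment receptor, at 2731, 2532, 2582 and 2596 CPM (UMIs of the gene per 1000000 UMIs of the population in that library, for control 1, control 2, CrT-KO 1 and CrT-KO 2, the order used throughout). Slco2b1, an organic anion transporter, stood at 1048, 1129, 1134 and 1031 CPM. Both were far lower in the 4599 oligodendrocyte nuclei gated from the same libraries (mean 11.1 and 4.29 CPM), and each differed little between the 4 microglial sums. A UMI of P2ry12, the purinergic receptor that guides the processes, was found in 54.0% of microglial nuclei (1020 of 1890) and in 1.09% of oligodendrocyte nuclei. Oligodendrocytes do not use the gene, so their share can show free RNA of the droplets. Their gate, however, also required a sum of the genes of the rule below 2. That limit can lower microglial RNA there, so these oligodendrocyte values are not a full measure of the background. Median depth was 893 to 1046 UMIs in microglia and 1235 to 1412 in oligodendrocytes. After each nucleus was thinned to 500 UMIs the P2ry12 shares were 31.5%, 32.4%, 32.2% and 42.7% in microglia and at most 0.868% in oligodendrocytes. Of the 25 homeostatic genes, Itgam (CD11b) had 0 UMIs in the 1890 nuclei, which allows up to 0.159% of nuclei with a UMI, and only 1 UMI in all nuclei of the series. The lineage factor Irf8 and the complement gene C3 were also at 0 in microglia, and C3 had 2 UMIs in all nuclei. Microglia are known to express these 3 genes, and whether the custom gene models used for counting captured them was not tested, so the zeros do not show that microglia lacked them.

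Markers of other cells were measured as far as the rule left them free. Of 16 border-associated macrophage markers 7 were at 0. Among them Mrc1 and F13a1 were held at 0 by the rule, while Lyve1, Pf4, Cbr2, Cd209f and Siglec1 were free. Stab1 gave 90.5% of the list's level. Of 12 monocyte and neutrophil markers 10 were at 0, and Csf3r, a cytokine receptor that microglia also use, gave 98.97% of the list's level. The defining lymphocyte genes Cd79a and Pax5 had no UMI. The 12 astrocyte markers, of which Gfap and Sox9 were at 0, summed to 671, 753, 762 and 798 CPM, both CrT-KO values above both controls, against 352 to 456 in oligodendrocytes. The 16 vascular markers, of which Cldn5, Pdgfrb and Col1a1 were at 0, summed to 74.9, 91.3, 54.0 and 25.6 CPM, both CrT-KO values below both controls. The part of these cells' RNA in the genotype differences was not tested. Neuronal markers added up to 4116, 4057, 4759 and 4191 CPM, the 2 CrT-KO values lying above both controls. They were carried by abundant transcripts such as Syt1 (synaptotagmin 1) at 1168, 1164, 1469 and 1230 CPM, against a mean of 934 in oligodendrocytes and 5295 in excitatory nuclei.

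Genes were ranked by their level in microglia against all other nuclei, as a description without a test, since these cells were chosen by their expression. Over the 5866 genes with at least 50 microglial UMIs, 870 were more than 5-fold and 410 more than 20-fold higher in microglia. The first 20 were Abi3 (384-fold), Csf2rb (379-fold), Siglech (372-fold), Klhl6, Mlph, Slco2b1 (341-fold), Arhgap45, Clec5a, 6030468B19Rik, Vav1, Slamf6, Inpp5d (321-fold), Clec4a2, Fcrl1, Tmem273, Il10ra, Crybb1, Runx1 (300.5-fold), Bin2 and Rhoh (298-fold). Abi3 belongs to the WAVE actin complex and stood at 239.6, 265, 229 and 246 CPM, Vav1 is a guanine nucleotide exchange factor of immune receptors, and Csf2rb is the common beta chain of the GM-CSF and IL-3 receptors. Siglech, Inpp5d and Runx1 were used by the rule, and the other 17 were not.

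**Figure D1:**
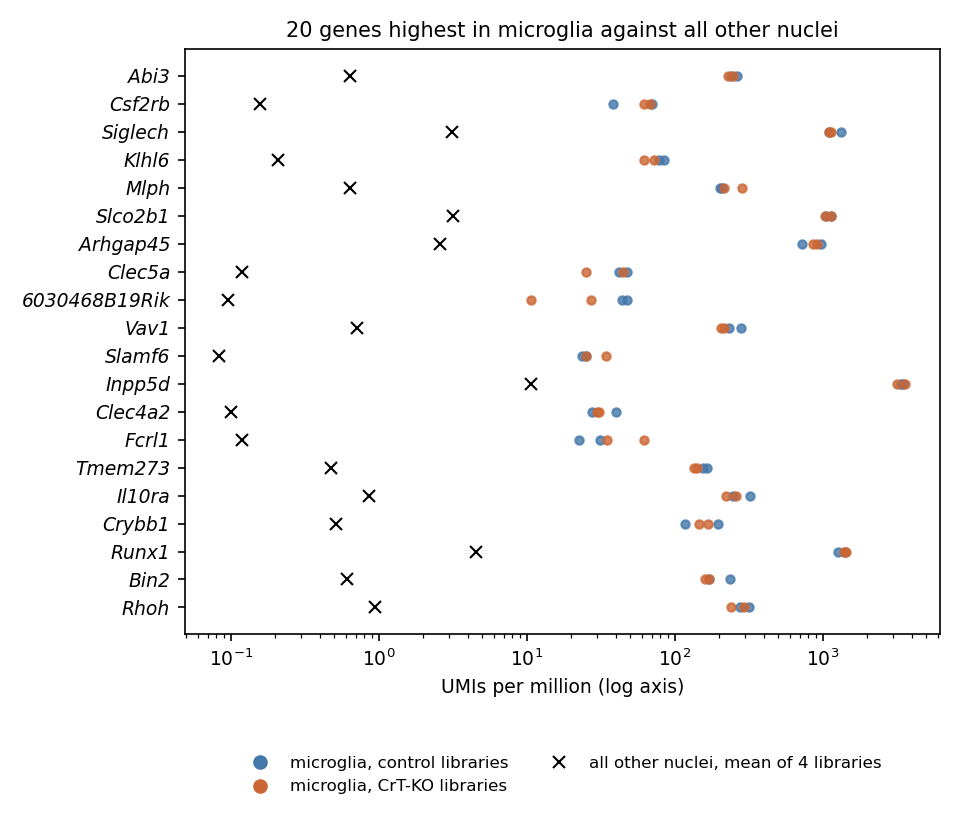
CPM (UMIs per 1000000, log axis) of the 20 genes with the highest fold in microglia against all other nuclei. Points are the microglial sums of the 4 libraries, coloured by genotype, and crosses are the mean of all other nuclei, from which every point is well separated, as for Inpp5d at 3170 to 3619 CPM against 10.6.

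Promoter sequence of these leading genes is shown because PU.1 is the factor that defines the lineage. A window of 300 bases (250 before to 50 after the start site, RefSeq, GRCm38.p6) was found for 16 of the 20 genes, and 4 of them (25%) held the 8 bases of the PU.1 core GAGGAAGT on either strand. Over the 27025 genes with a window that was used the share was 3.69%. Windows on 1 chromosome were left out of every set, so a gene counted here as without a window may have one. The genes with a match were Inpp5d (chr1:87620062-87620361, plus strand, match 20 to 13 bases before the start), Slco2b1 (chr7:99711291-99711590, minus strand, match at bases 7 to 14 after it), Vav1 (chr17:57278850-57279149, plus strand, match 11 to 4 bases before) and Fcrl1 (chr3:87376137-87376436, plus strand, match 15 to 8 bases before, on the opposite strand). The sequences are written 5' to 3' in the direction of transcription, with the match in capitals:
Inpp5d: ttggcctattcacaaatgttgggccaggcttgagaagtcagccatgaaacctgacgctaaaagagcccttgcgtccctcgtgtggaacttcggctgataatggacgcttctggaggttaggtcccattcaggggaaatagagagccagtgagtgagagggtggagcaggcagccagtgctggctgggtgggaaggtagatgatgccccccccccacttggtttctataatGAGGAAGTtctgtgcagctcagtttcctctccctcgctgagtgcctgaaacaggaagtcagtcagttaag
Slco2b1: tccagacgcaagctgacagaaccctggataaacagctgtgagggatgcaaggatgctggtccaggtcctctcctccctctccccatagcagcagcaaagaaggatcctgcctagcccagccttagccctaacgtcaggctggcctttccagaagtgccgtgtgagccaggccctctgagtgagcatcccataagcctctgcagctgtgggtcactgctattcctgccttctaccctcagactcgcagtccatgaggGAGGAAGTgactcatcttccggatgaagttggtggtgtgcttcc
Vav1: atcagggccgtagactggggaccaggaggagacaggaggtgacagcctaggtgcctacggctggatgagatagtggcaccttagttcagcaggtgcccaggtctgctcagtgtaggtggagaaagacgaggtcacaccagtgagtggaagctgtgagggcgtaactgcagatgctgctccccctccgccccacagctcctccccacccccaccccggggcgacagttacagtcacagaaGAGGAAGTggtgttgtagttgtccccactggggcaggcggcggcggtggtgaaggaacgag
Fcrl1: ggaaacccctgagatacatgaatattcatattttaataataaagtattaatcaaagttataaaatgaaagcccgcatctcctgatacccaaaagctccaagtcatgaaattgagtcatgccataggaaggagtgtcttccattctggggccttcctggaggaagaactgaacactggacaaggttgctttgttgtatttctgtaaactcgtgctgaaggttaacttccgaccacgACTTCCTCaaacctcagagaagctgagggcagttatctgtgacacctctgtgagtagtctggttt
All 4 matches lay within 20 bases of the annotated start. Of the other sets, 1 of 5 genes of the rule (Inpp5d), 2 of 19 homeostatic genes (Ctss and Slco2b1), 0 of 14 lineage transcription factors and 0 of 3 genes changed between genotypes held a match. A match describes the letters in the window and is not a measured binding site.

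Microglia made up 4.79% (exact binomial 95% interval 4.34 to 5.28) and 5.48% (5.02 to 5.96) of nuclei in the control libraries and 5.19% (4.75 to 5.66) and 5.69% (5.21 to 6.19) in the CrT-KO libraries. The groups overlapped, with means of 5.13% ± 0.483 and 5.44% ± 0.351 (SD, n = 2 each, exact permutation p = 0.667). The intervals cover counting error only. Against non-neuronal nuclei the shares were 10.4%, 12.0%, 12.1% and 11.8%. There were 0.383 and 0.378 microglial nuclei per oligodendrocyte nucleus in the controls and 0.488 and 0.409 in CrT-KO, without overlap, a difference for which the exact permutation p was 0.333, the smallest possible.

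The targeted gene was checked in each library first. Over all nuclei Slc6a8 (chrX:73673150-73682502, plus strand) stood at 7.20 and 6.12 CPM in the controls and at 1.62 and 1.63 in CrT-KO, and it fell by 1.98 on the log2 scale (SE 0.157, edgeR quasi-likelihood adjusted p = 0.0126). The deletion leaves part of the transcript, from which UMIs can still be counted. In microglia only 3 UMIs of Slc6a8 were found, 0 and 2 in the controls and 0 and 1 in CrT-KO, so neither its level nor its loss could be measured there. In oligodendrocytes the counts were 29, 30, 7 and 10. Of the enzymes of creatine synthesis, Gatm had 13, 27, 24 and 23 microglial UMIs (log2 difference 0.19, adjusted p = 0.986) and Gamt 0, 0, 1 and 0. The brain creatine kinase Ckb had 41, 43, 45 and 21 UMIs, with CrT-KO 2 the lowest and the genotypes overlapping (-0.41, SE 0.267, adjusted p = 0.872).

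Gene expression was then compared between genotypes on microglial UMIs summed per library. A fold change is CrT-KO over control on a log2 scale, and a gene was called at a Benjamini-Hochberg adjusted p under 0.1. Of 6755 genes tested, 4 were called, 2 higher in CrT-KO (0.0296% of those tested) and 2 lower (0.0296%). Zbtb16 and Gpc5 rose and Cst3 and Glis3 fell. At an unadjusted p under 0.05 there were 418 genes, 242 higher (3.58%) and 176 lower (2.61%). Both CrT-KO libraries lay above both controls for 17.3% of the genes tested and below both for 17.1%. DESeq2 called 0 genes on the same sums, with 68 at an unadjusted p under 0.05.

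Zbtb16 encodes PLZF, a zinc finger transcriptional repressor that glucocorticoids are known to induce. It lies at chr9:48654297-48836222 on the minus strand (GRCm38). Microglia held 19 and 52 UMIs of it in the controls and 78 and 114 in CrT-KO, or 47.4 and 95.0 CPM against 150.4 and 243. Both CrT-KO libraries were above both controls, and the 2 libraries also differed within each genotype. The gene rose by 1.40 on the log2 scale (SE 0.227, adjusted p = 2.38e-05). The share of nuclei with a UMI, thinned to 500 UMIs per nucleus, was 2.27% (exact 95% interval 1.04 to 4.26), 2.55% (1.37 to 4.33), 6.65% (4.59 to 9.26) and 9.74% (7.29 to 12.7), and unthinned it was 4.53%, 7.66%, 11.9% and 17.7%. No gated population lacked the gene, so no background share could be read. Oligodendrocytes, where it is abundant, showed 33.7% to 52.6% after thinning and a mean of 1313 CPM, against 134 in microglia. Oligodendrocyte levels were 863, 1422, 1368 and 1598 CPM and excitatory levels 275, 253, 309 and 264, so control 1 was the lowest library in oligodendrocytes as in microglia. Without CrT-KO 2 the change in microglia was 1.02 (adjusted p = 0.155), without control 2 it was 2.04 (adjusted p = 5.73e-05), and with DESeq2 it was 1.46 (adjusted p = 0.999639). The part of free oligodendrocyte RNA in this result was not tested. The 15 oligodendrocyte markers summed to 422, 670, 465 and 433 CPM in microglia, with neither CrT-KO library above both controls. Gjb1 was at 0, and Mog was at 0 because the rule required it. All 7 markers tested were lower in CrT-KO without a call (median -0.25, or 0.22 without control 2).

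Cst3 encodes cystatin C, a secreted inhibitor of cysteine cathepsins and an abundant microglial transcript (chr2:148871722-148875692, minus strand). It held 219 and 347 UMIs in the controls and 167 and 165 in CrT-KO, or 547 and 634 CPM against 322 and 352. The groups did not overlap, and the gene fell by 0.81 on the log2 scale (SE 0.148, adjusted p = 0.000362). The thinned share of nuclei with a UMI was 24.2% and 23.4% in the controls and 13.1% and 18.3% in CrT-KO, against 1.73% to 3.19% in oligodendrocytes. The call was lost without control 2 (-0.69), without CrT-KO 1 (-0.75) and with DESeq2 (adjusted p = 0.347). It was also lost when nuclei with a UMI were counted (-0.56, edgeR adjusted p = 0.107), a step chosen after seeing the data. Microglia held 464 CPM on average, against 52.6 in oligodendrocytes and 11.8 in excitatory nuclei. Both CrT-KO libraries were also below both controls in these 2 populations. Cst3 stood at 14.6, 14.6, 10.6 and 7.37 CPM in excitatory nuclei, where the change was not tested. In oligodendrocytes it stood at 51.7, 65.2, 44.3 and 49.1 CPM (log2 difference -0.34, edgeR adjusted p = 0.848). The difference of the change between microglia and oligodendrocytes was -0.47 (interaction adjusted p = 0.872).

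Glis3 encodes a Krüppel-like zinc finger transcription factor (chr19:28258851-28680077, minus strand). It held 75 and 99 UMIs in the controls and 48 and 44 in CrT-KO. The levels were 187 and 181 CPM against 92.6 and 93.9, with little spread inside either genotype, and the gene fell by 0.97 on the log2 scale (SE 0.213, adjusted p = 0.0185). Its mean was 139 CPM in microglia, 6.27 in oligodendrocytes and 33.7 in excitatory nuclei. The size of the change stayed between -0.995 and -0.956 when any 1 library was left out, and the call was lost each time. Other settings that lost it were DESeq2, both other limits on the sum of the rule, thinning and counting nuclei with a UMI. Its annotated span holds 2 other genes, 4933413C19Rik and D930032P07Rik, and whether counting used the strand was not stated, so its counts are uncertain to that extent.

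**Figure D2:**
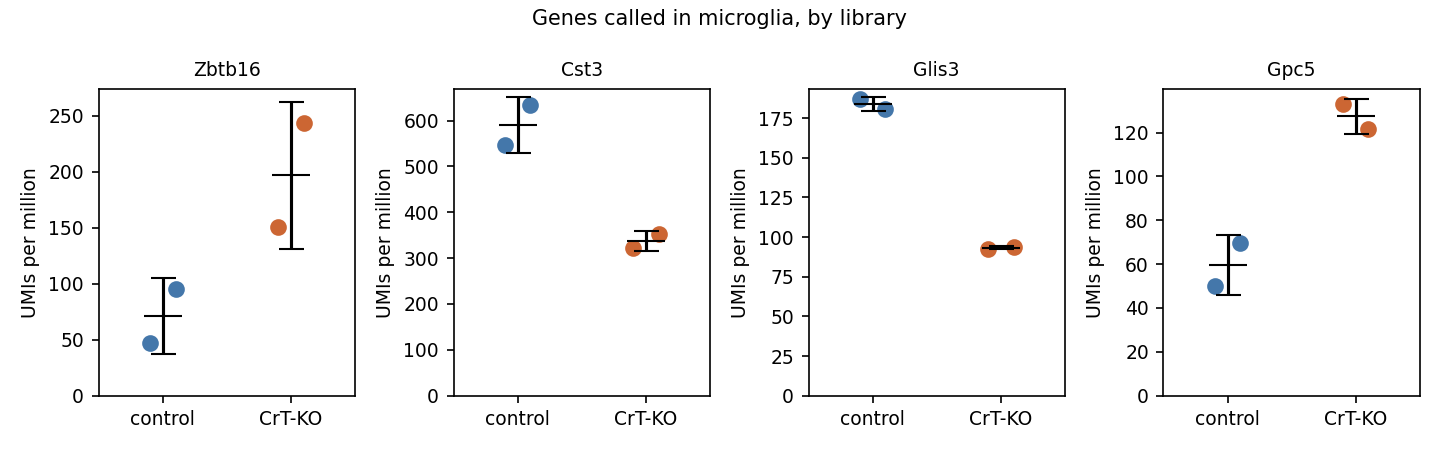
CPM of the 4 genes that differed between genotypes in microglia, 1 point per library, with lines at the mean and bars of 1 SD (n = 2). The 2 CrT-KO libraries lie above both controls for Zbtb16 and Gpc5 and below both for Cst3 and Glis3.

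Gpc5 encodes glypican 5, a heparan sulphate proteoglycan of the cell surface (chr14:115092215-116525179, plus strand, a span that holds 3 other genes on the opposite strand). Excitatory nuclei held it at 121, 120, 174 and 152 CPM, both CrT-KO libraries above both controls, a change not tested there. Oligodendrocytes held it at 82.4, 85.9, 130 and 63.4 CPM, with the genotypes overlapping. In microglia it held 20 and 38 UMIs in the controls and 69 and 57 in CrT-KO, or 49.9 and 69.4 CPM against 133 and 122. The gene rose by 1.07 on the log2 scale (SE 0.252, adjusted p = 0.0569), and the call was lost when any 1 library was left out (0.87 to 1.36, adjusted p from 0.121 to 0.759). The rise rested on 2 nuclei. A nucleus of CrT-KO 1 with 3242 UMIs held 17 of the Gpc5 UMIs, and a nucleus of CrT-KO 2 with 4109 UMIs held 28. Each was the member with the most UMIs in its library. They held 43 and 69 UMIs of the 10 markers of oligodendrocyte precursor cells (OPCs), the dividing progenitors of oligodendrocytes, beside 11 and 13 UMIs of the 6 microglial genes of the rule. None of the other 1888 members held more than 5 OPC UMIs or more than 3 of Gpc5. Without those 2 nuclei, a step added after the values were seen, Gpc5 had 20, 38, 52 and 29 UMIs and a log2 difference of 0.44 (adjusted p = 0.894). The other 3 called genes kept their calls, at 1.36, -0.80 and -0.96 for Zbtb16, Cst3 and Glis3 (adjusted p of 1.03e-05, 0.000320 and 0.0189). Scrublet, a doublet caller, marked 1, 8, 3 and 4 members as doublets, and after those were left out Gpc5 still had 20, 37, 68 and 57 UMIs.

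The OPC markers, none of them at 0, moved with these nuclei. In microglia they summed to 247, 303, 418 and 412 CPM with all members and to 247, 303, 338 and 267 without the 2 nuclei. Lhfpl3, a tetraspan membrane protein gene abundant in OPCs, had 31, 61, 93 and 79 UMIs and missed the threshold (log2 difference 0.85, SE 0.215, adjusted p = 0.131). Without the 2 nuclei it had 31, 61, 77 and 47. Vcan, a proteoglycan of the OPC matrix, went from 2, 8, 18 and 14 UMIs to 2, 8, 10 and 10. With all members the median of the 3 OPC markers tested was 0.85.

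**Figure D3:**
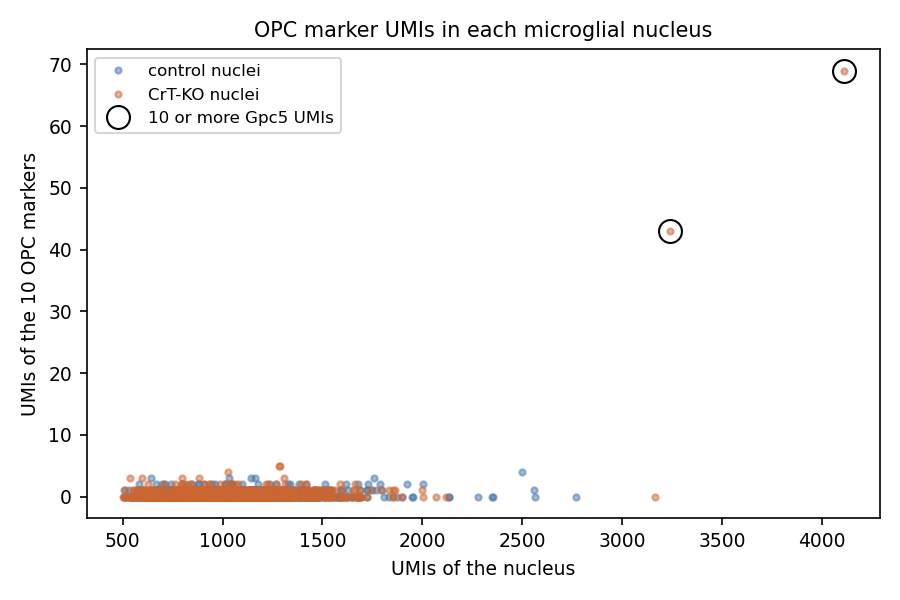
UMIs of the 10 OPC markers in each microglial nucleus against its total UMIs, 1 point per nucleus, coloured by genotype, with circles around nuclei that hold 10 or more Gpc5 UMIs. A nucleus of CrT-KO 1 with 43 and a nucleus of CrT-KO 2 with 69 stand apart from the other 1888, which reach at most 5.

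The 6 genes that the rule added up were all tested and none was called (median log2 difference 0.01). They chose the members, so this is a description and not a finding. Inpp5d, the lipid phosphatase SHIP1, stood at 3372, 3507, 3170 and 3619 CPM and Tgfbr1, the type I TGF-beta receptor, at 3584, 3301, 3532 and 3484. Among the 24 homeostatic genes tested, Cst3 was called lower and no other passed, 5 were higher and 19 lower, and the median was -0.07, against -0.0025 over all genes tested. The summed level of this list was 12335, 12894, 11704 and 12517 CPM, so the genotypes overlapped. The factors that define the lineage, among them Runx1 of the rule, had 17 members tested and 0 called (median -0.08). Mef2a, a MADS box factor, stood at 2294, 2216, 1820 and 1917 CPM, with both CrT-KO libraries below both controls (-0.27, SE 0.120, adjusted p = 0.683). Mef2c, its paralog, stood at 1717, 1701, 1477 and 1746 and Ikzf1 (Ikaros) at 1078, 1273, 1251 and 1253. The list's median was 0.02 without CrT-KO 1.

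The lists of signalling genes held no called gene. Tgfbr1, Csf1r, Inpp5d and Cx3cr1 belong both to these lists and to the rule, so their own levels are a description. The 14 tested genes of TGF-beta signalling had a median of -0.06, with the type II receptor Tgfbr2 at 362, 398, 401 and 478 CPM. The 10 tested receptors around CSF1 had a median of -0.15, and Csf1r itself, a gene of the rule, stood at 943, 928, 899 and 801 CPM. Of 25 tested genes of ITAM signalling and engulfment 18 were lower (median -0.08), among them the integrin Itgb5 at 1375, 1200, 1047 and 979.9 CPM (-0.34, SE 0.127, adjusted p = 0.528). Elmo1, which links engulfment receptors to Rac, stood at 4448, 4667, 4217 and 4360. Among 6 purinergic genes (median -0.02), P2ry12 stood at 921, 893, 918 and 1155 CPM and the ectonucleotidase Entpd1 at 1328, 1470, 1010 and 1381. Among 5 chemokine and chemoattractant receptors (median 0.01), Cx3cr1, the receptor of the neuronal chemokine fractalkine, stood at 869, 849, 864 and 993.

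The effector lists were described in the same way. The classical complement genes C1qa, C1qb and C1qc, which together build C1q, had log2 differences of -0.58, -0.41 and -0.39, none past the threshold (adjusted p of 0.629, 0.799 and 0.813). Their UMIs were few, with 51, 58, 47 and 29 for C1qa. The complement list as a whole had 8 tested genes, 4 higher and 4 lower, and a median of 0.0047. Of 23 tested lysosomal genes, Cst3 alone was called, 15 were lower and the median was -0.10, though without control 2 the median was 0.04 over the 25 then tested. Slc9a9, an endosomal sodium-proton exchanger, stood at 1820, 1763, 1396 and 1529 CPM (-0.29, adjusted p = 0.629), and Lgmn (legumain) at 943, 952, 969.9 and 914. Ctss (cathepsin S), a protease that cystatin C inhibits, stood at 617, 683, 588 and 717.

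No gene of the reactive-state lists was called. Of 25 measured genes of disease-associated microglia 4 were at 0 (Cst7, Itgax, Gpnmb and Atp6v0d2), 12 were tested, 0 were called and the median was 0.03. Apoe, the lipid carrier that rises in that state, had a UMI in 5.34% of microglial nuclei and in 8.78% of oligodendrocyte nuclei. These shares were not thinned, and median depth was higher in oligodendrocytes. Whether the Apoe UMIs in microglia were free RNA was not tested. Of 14 tested inflammatory genes none was called, 12 were lower, both CrT-KO libraries lay below both controls for 8 of the 14 (17.1% of all genes tested), and the median was -0.21. The list summed to 2254 and 2066 CPM in the controls and 1851 and 1817 in CrT-KO, without overlap. Tlr7, the endosomal sensor of single-stranded RNA, stood at 394, 449, 318 and 301 CPM (-0.45, SE 0.154, adjusted p = 0.391). The costimulatory molecule Cd86 stood at 522, 471, 403 and 393 (-0.31, SE 0.147, adjusted p = 0.750). The list's median ranged from -0.33 to -0.09 when 1 library was left out (15 or 16 genes then tested) and was -0.22 with upper-quartile scaling and -0.21 with DESeq2. Only 4 interferon-responsive genes could be tested (median -0.40, none called), with Trim30a at 83, 82, 82 and 84 UMIs. Of 7 tested antigen presentation genes none was called (median -0.26), and without CrT-KO 1 the median was 0.0024 over the 8 genes then tested. Cell cycle genes with a level to test were Ccnd3 and Cdk6 (none called), and 0 of 1890 nuclei held UMIs of 2 or more of 13 proliferation genes, which at this depth bounds nuclei with such UMIs (up to 0.159%) and not the share of cycling cells. From 5 to 7 nuclei per library held UMIs of 1 of these genes.

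**Figure D4:**
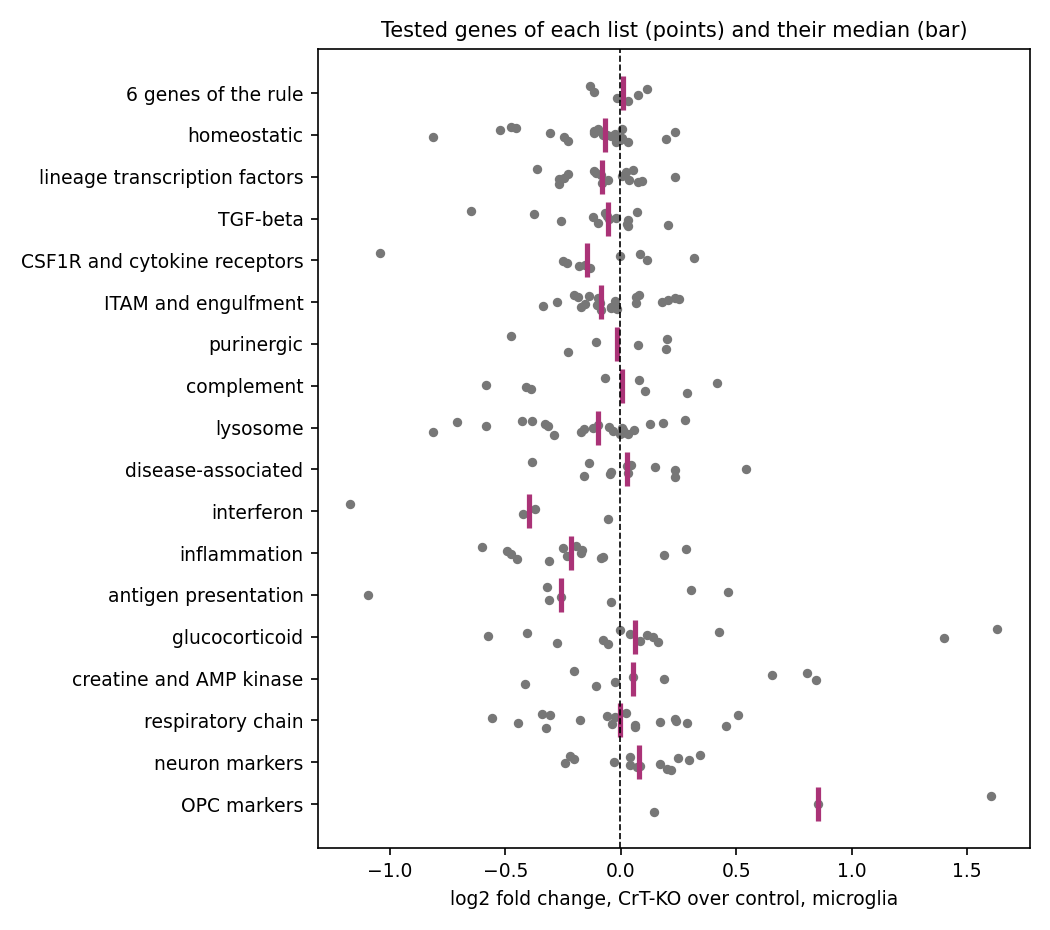
Log2 differences (CrT-KO over control) of the tested genes of each list in microglia, 1 point per gene, with a bar at the median of each list. Most medians lie near 0, that of the inflammatory genes at -0.21 and that of the 3 OPC markers at 0.85, while the median over all 6755 genes tested was -0.0025.

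Among 14 tested glucocorticoid-responsive genes Zbtb16 was called, 8 were higher and 6 lower, and the median was 0.06. Fkbp5, a chaperone of the glucocorticoid receptor, stood at 1645, 1613, 1847 and 1272 CPM (-0.06, SE 0.125, adjusted p = 0.986). The receptors themselves did not pass, Nr3c1 at 392, 339.8, 257 and 346 CPM and Nr3c2 at 317, 270.3, 326 and 325. Energy genes gave no call. The 9 tested genes of creatine and AMP kinase metabolism had a median of 0.05, with the adenylate kinase Ak5 at 13, 18, 28 and 30 UMIs (0.85, SE 0.349, adjusted p = 0.626). The 15 glucose genes had a median of -0.09 and the 18 respiratory chain genes one of -0.0015.

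The study chose 17 synaptic and adhesion genes as higher in microglia of these same libraries, so their direction here is not independent evidence. None of the 17 was called in the main test on sums per library, 17 were higher at an unadjusted p under 0.05 (3.58% of all genes tested), and the median was 0.38. Summed, they held 22855 and 23648 CPM in the controls and 32299 and 27925 in CrT-KO. Ptprd, a receptor tyrosine phosphatase that organises synapses, stood at 3112, 3208, 4583 and 3958 CPM (0.44, SE 0.116, adjusted p = 0.176). Nrg3 (neuregulin 3) stood at 1939, 2088, 2925 and 2513 (0.44, SE 0.119, adjusted p = 0.218) and Kcnip4, a potassium channel interacting protein, at 2703, 2791, 3870 and 3262 (0.38, SE 0.117, adjusted p = 0.304). In each of these the 2 CrT-KO libraries lay above both controls and CrT-KO 1 was the highest.

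These genes were more abundant in neurons. Excitatory nuclei held the 17 genes at 97670, 101623, 110357 and 109696 CPM and oligodendrocytes at 27274, 29181, 32450 and 30435, so both CrT-KO libraries were also above both controls in both of those populations. Ptprd averaged 16288 CPM in excitatory nuclei and 8286 in oligodendrocytes, and in oligodendrocytes it differed by -0.03 on the log2 scale. When only genes higher in microglia than in excitatory nuclei were tested, none of the 17 remained among those tested. Neuronal markers outside the list had a median of 0.08, with 10 of 14 higher. With no filter on low counts Ptprd and Nrg3 passed (adjusted p of 0.0376 and 0.0969), and with the wider rule of a sum of at least 3 and 20 per 10000 UMIs Ptprd passed (0.59, adjusted p = 0.0474). Without CrT-KO 2, Ptprd, Nrg3, Kcnip4, Fgf14 and Gria2 passed the threshold (adjusted p of 0.00250, 0.00628, 0.00918, 0.0225 and 0.0499). How much neuronal RNA in the droplets contributed was not tested. Of 6 further genes that the study had chosen in microglia, on the same libraries and so not as independent evidence, Zbtb16 and Cst3 were called. Nav2, a cytoskeletal regulator of neurite growth, stood at 5763, 5144, 4256 and 4112 CPM (-0.38, SE 0.115, adjusted p = 0.302) and Lysmd4 at 382, 349, 283 and 224 (-0.51, SE 0.161, adjusted p = 0.331).

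Whether a genotype difference was particular to microglia was tested against oligodendrocytes of the same animals, as the term for genotype by population with library as a factor. Of 9720 genes tested 13 passed (0.134%), with 535 at an unadjusted p under 0.05. Zbtb16 rose more in microglia than in oligodendrocytes, by 1.07 on the log2 scale (SE 0.251, adjusted p = 0.0200). Its change in oligodendrocytes was 0.37 (adjusted p = 0.712). For Cst3, Glis3 and Gpc5 the difference between the populations did not pass (adjusted p of 0.872, 0.975 and 0.521).

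For Fkbp5 and Tnr the called change was that in oligodendrocytes. Fkbp5 differed by -1.06 (SE 0.162, adjusted p = 6.90e-07), with levels of 186, 365, 530.4 and 541 CPM in oligodendrocytes, where it rose by 0.94 (adjusted p = 0.0113), and no call in microglia. Tnr (tenascin R), an extracellular matrix glycoprotein and a member of the OPC list, differed by 1.37 (SE 0.219, adjusted p = 1.93e-06). It held 722, 504, 226 and 289.9 CPM in oligodendrocytes, where it fell by 1.25 (adjusted p = 7.45e-05), and 159.7, 157, 162 and 188 in microglia. The oligodendrocyte gate set no limit on OPC markers, which summed there to 1192, 941, 750 and 713 CPM. The Tnr call was lost without CrT-KO 1 (1.29) and without CrT-KO 2 (1.46). Without the 2 nuclei rich in OPC markers its difference was 0.97 (adjusted p = 0.0324). Lhfpl3 (1.04, adjusted p = 0.0173) and Vcan (2.53, adjusted p = 0.0173) also passed, and without the 2 nuclei rich in OPC markers they did not (0.57 and 1.87, adjusted p of 0.871 and 0.639). In that step Fkbp5 and Zbtb16 still passed (adjusted p of 1.03e-06 and 0.0592). The other 8 were Tcf7l2, Frmd4a, Zdhhc9, Ndst4, Kcnma1, Opcml, Spata13 and Aldh16a1. Calls of this kind depended on the libraries, and 0 passed without CrT-KO 2 (357 at an unadjusted p under 0.05), 2 without control 1, 2 without CrT-KO 1 and 9 without control 2. Zbtb16 lost the call in all 4 of these fits (adjusted p from 0.220 to 0.972), and Fkbp5 lost it without control 1 (-0.62, adjusted p = 0.843) and without CrT-KO 2 (-0.77, adjusted p = 0.972).

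**Figure D5:**
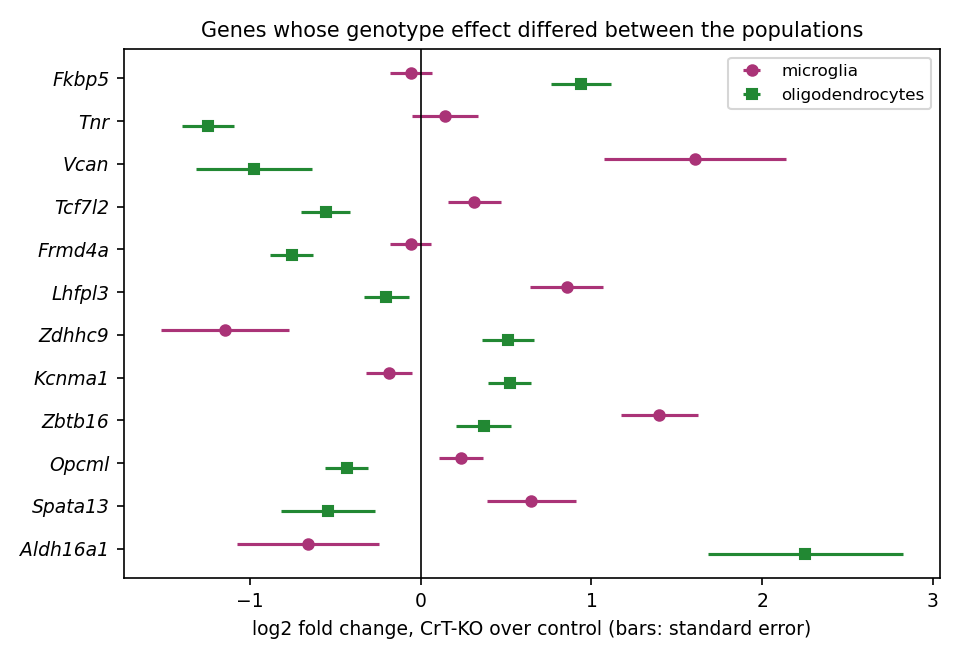
Log2 fold change (CrT-KO over control, bars of 1 SE) in microglia and in oligodendrocytes for the genes whose difference between the populations passed, apart from Ndst4, which had too few UMIs to be tested in microglia alone. Fkbp5 lies near 0 in microglia and at 0.94 in oligodendrocytes, and Zbtb16 at 1.40 and 0.37.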

How the data were processed

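Nuclei from the right cortex of 2 control and 2 CrT-KO males were sorted by flow cytometry and sequenced with a 10x Genomics 3' kit, 1 library per animal. The deposited matrices hold raw UMI counts per gene (21933) and nucleus, which the authors made with Cell Ranger 3.1.0 on GRCm38 (mm10), with whole gene bodies counted so that intronic reads entered. The submitters' processing notes also name Seurat 3.1.4. Use of strand in counting was not given in the sources used here.

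Members were picked by the rule, and their UMI counts were summed per library. Intronic counting favours long genes, so CPM levels were mainly compared between libraries or populations for the same gene or list. A gene's share of a list's level and the choice of leading members by level do compare genes, and gene length can affect them. The sums were tested with edgeR 4.0.16 (quasi-likelihood, TMM factors, filterByExpr, no block, R 4.3.3), adjusted by Benjamini-Hochberg over all genes tested and called under 0.1. Single values per library were tested by a two-sided exact permutation test. The study itself compared single nuclei. Oligodendrocytes (at least 4 UMIs of a marker set with Mag, Mog, Mobp and St18) and excitatory nuclei (at least 3 of Slc17a7) were gated for comparison. The oligodendrocyte gate also capped the summed UMIs of the genes of the rule. Alternatives were DESeq2 1.42.0, other scaling and filters, leaving out each library, doublets (Scrublet in scanpy 1.11.5), other limits of the rule and thinning. The code was tested on simulated data. Some list members are not reported here. Named genes were Slc6a8, the genes of the rule, the called genes, the leading members of each list by level and the first 20 by fold. Other genes, such as Itgb5, C1qa, Lysmd4 and those singled out by the interaction test, were named after their values were seen. Members and lists were chosen with earlier results of these data known. Coordinates are from GENCODE vM21 and promoters from RefSeq.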

Additional observations from a re-analysis of the deposited data

Results flagged for a closer look

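The change between genotypes differed between microglia and oligodendrocytes for 13 genes in a test of that difference, and 5 of them are listed here because they belong to the called genes or to the lists described above. The log2 difference in microglia minus that in oligodendrocytes was -1.06 for Fkbp5, 1.37 for Tnr, 2.53 for Vcan, 1.04 for Lhfpl3 and 1.07 for Zbtb16. Zbtb16 was the 1 gene of the 5 that was also called in microglia themselves. Vcan and Lhfpl3 lost the call once 2 microglial nuclei rich in OPC markers were left out.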

How the results depend on the processing

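The 4 calls between genotypes in microglia became 0 with DESeq2, 1 with a sum of the 6 genes of at least 8 and 2 after thinning. They became 8 with Mrc1 and F13a1 free and 1 when nuclei with a UMI were counted, a step chosen after seeing the data. Among genes higher in microglia than in excitatory nuclei there were 2 calls, and that set did not include Zbtb16 or Gpc5. Leaving out 1 library gave 1 to 9 calls (1 without control 2 or CrT-KO 1, 5 without control 1, 9 without CrT-KO 2). Differences between microglia and oligodendrocytes went from 13 to 0 to 9 when 1 library was left out, to 5 without doublets and to 8 without the 2 nuclei rich in Gpc5, a step also chosen after seeing the data. The share of microglia differed by 0.302 percentage points, by 0.739 with non-neuronal nuclei as the denominator, and by -0.0389 to 0.644 when 1 library was left out. The difference in median UMIs ranged from -114 to 39. The cause was not tested in any of these. Over all alternatives the adjusted p ranged from 3.31e-07 to 0.999639 for Zbtb16, 0.000207 to 0.347 for Cst3, 0.0105 to 0.999639 for Glis3 and 0.0175 to 0.999639 for Gpc5, and the direction of each held throughout. With the replicate number as a block 6 genes were called, all 4 and also Ptprd and Lhfpl3. The numbers share only a number (correlation of deviations 0.0362 for equal numbers), so this fit has no design behind it. At median depths of 893 to 1046 UMIs per nucleus and 2 animals per genotype, genes with few microglial UMIs could not be tested.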

Other observations

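MHC class II genes (H2-Aa, H2-Ab1, H2-Eb1 and Cd74), which present peptides to helper T cells, were nearly absent from microglia apart from 2 nuclei. Their UMIs numbered 1, 38, 2 and 28 in control 1, control 2, CrT-KO 1 and CrT-KO 2, found in 1, 3, 2 and 1 nuclei. A nucleus of control 2 held 30 of them and a nucleus of CrT-KO 2 held 28, with 5 and 11 UMIs of the 6 microglial genes of the rule. These nuclei occurred once in each genotype, and no comparison was made.

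Border-associated macrophages, gated by Mrc1 and F13a1, numbered 16, 21, 17 and 10 nuclei, or 64 in all. With Mrc1 and F13a1 free in the microglial rule, Mrc1 (-1.18, adjusted p = 0.000879) and Cd163 (-2.51, adjusted p = 0.0999), which mark those cells, were called lower in CrT-KO by the edgeR test. The nuclei that this step added numbered 18, 20, 18 and 17.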
